A study of Mus musculus with 12 samples.

Results

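The genes described here are 35 genes of the red cell lineage and of haem synthesis, taken as a named list from the 20696 genes with at least 1 read. They comprise 6 regulators and receptors, 7 haem enzymes, 4 genes of haem and iron handling, 12 membrane proteins, 4 globins and 2 carbonic anhydrases. RNA was sequenced from mouse bone marrow cells sorted as Flk2-, Lin-, Sca-1+ and Kit+, the surface pattern of haematopoietic stem cells and their nearest progeny. There were 12 libraries, 3 for each of 4 genotypes: Mdmx-Tg/Pu.1-URE-/- double mutants, Pu.1-URE-/- mice, Mdmx-Tg mice and Wild-type mice. Mdmx-Tg mice carry a transgene of Mdmx (gene Mdm4), a binding partner and inhibitor of p53. Pu.1-URE-/- mice lack the upstream regulatory element of the gene of the transcription factor PU.1 (Spi1). Each library came from a mouse with its own number. The labels give neither the age of the mice nor the promoter of the transgene. The comparisons ask how each alteration, alone and together with the other, changed the RNA of the sorted cells. In such bulk RNA, fewer cells of a type and less RNA per cell cannot be told apart.

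Red cells arise from stem cells by way of progenitors shared with megakaryocytes. The transcription factors GATA1 and KLF1 switch on the erythropoietin receptor, the globins, the haem enzymes and the proteins of the red cell membrane, while PU.1 and GATA1 are known to oppose each other's activity. Haem is built from glycine and succinyl-CoA by a chain of mitochondrial and cytosolic enzymes that starts with an ALA synthase and ends with the insertion of iron by ferrochelatase. Stem cells transcribe some of these genes at low levels before any commitment, whereas globins and band 3 belong to late precursors, which a lineage-negative sort is meant to leave out.

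The libraries held 47231506 to 55030235 reads assigned to genes. The 35 genes took 0.205% to 0.993% of a library's reads. Mdm4 stood at 353, 163 and 209.8 CPM in Mdmx-Tg/Pu.1-URE-/-, 93.9, 56.2 and 90.3 in Pu.1-URE-/-, 535, 414 and 163 in Mdmx-Tg and 77.9, 70.9 and 35.8 in Wild-type libraries, so both transgenic groups lay above both others in every library. Here CPM are reads of a gene per 1e6 reads of the library after scaling by the trimmed mean of M values (TMM). TPM are the authors' levels, scaled to transcript length and library total. Levels and overlaps of libraries are in CPM unless TPM is named, and genes without overlap were counted in CPM only. For several genes below, groups that did not overlap in CPM overlapped in TPM. Spi1 stood at 3.48, 1.84 and 0.0198 CPM in Mdmx-Tg/Pu.1-URE-/-, 8.73, 8.73 and 23.9 in Pu.1-URE-/-, 21.6, 13.5 and 3.69 in Mdmx-Tg and 38.0, 5.34 and 8.08 in Wild-type libraries, and the Pu.1-URE-/- values overlapped those of both groups with an intact element. Kit, which marks the sorted cells, stood between 165 and 328 CPM. Markers that the sort should leave out were also found. The summed level of 14 neutrophil markers was 33814 to 57386 CPM in Mdmx-Tg/Pu.1-URE-/-, 52370.1 to 144841 in Pu.1-URE-/-, 851 to 1625 in Mdmx-Tg and 1245 to 2512 in Wild-type libraries. Immunoglobulin genes took between 0.131% and 31.2% of the reads, most in Wild-type library 1. Y-linked genes were read in Mdmx-Tg/Pu.1-URE-/- libraries 1 and 3 and in Wild-type library 2, at 199.9, 222 and 214 CPM, and at no more than 5.70 CPM in the other 9.

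Across the genotypes the means of most erythroid genes were highest in Wild-type cells and lowest in the double mutants. Of the 34 genes that passed the filter on low counts, the Wild-type mean was the highest of the 4 genotypes for 27, and the Mdmx-Tg/Pu.1-URE-/- mean was the lowest for 26. Only Slc4a1 did not pass the filter. Means were not ranked in this way over all genes. The list was chosen with earlier results of these data known, so its direction alone supports nothing. The individual calls were few. In edgeR's quasi-likelihood test, with Benjamini-Hochberg adjusted p below 0.05 over 15012 genes, Slc25a38 and Mfsd2b fell in Mdmx-Tg/Pu.1-URE-/- cells, Alad fell in Pu.1-URE-/- cells, and these same 3 genes fell with loss of the element when averaged over transgene status. Mfsd2b exports sphingosine-1-phosphate from red cells, Slc25a38 carries glycine into mitochondria for haem synthesis, and Alad is the second enzyme of that chain.

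Against Wild-type, 31 of the 34 genes had a log2 change below 0 in Mdmx-Tg/Pu.1-URE-/- cells, with a median of -1.72, where all genes tested had a median of 0.04. The 2 calls were both downward, in a comparison that called 3.34% of all genes in either direction and 0.873% downward. Every Mdmx-Tg/Pu.1-URE-/- library lay below every Wild-type library for 21 of the 34 genes, against 10.8% of all genes. An unadjusted p below 0.05 was found for 19 of the 34 (55.9%) and for 18.5% of all genes. DESeq2 called 13 of the erythroid genes and 8.3% of all genes, and limma-voom called 8 and 4.02%, with the erythroid genes all lower. Here and below, DESeq2's share of all genes is over the 20696 genes with at least 1 read. It is therefore lower than a share over the 15012 genes that edgeR tested would be for the same number of calls. The edgeR count depended on single libraries: without Mdmx-Tg/Pu.1-URE-/- library 2 it was 15 (3.35% of all genes), and without any one of Mdmx-Tg/Pu.1-URE-/- libraries 1 and 3 or the 3 Wild-type libraries it was 0.

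In Pu.1-URE-/- cells 30 of the 34 genes had a log2 change below 0 against Wild-type, with a median of -1.07. The single call, Alad, stands beside 4.71% of all genes called in either direction and 0.866% called downward. Of the 34 genes, 19 had every Pu.1-URE-/- library below every Wild-type library, against 13.7% of all genes. The call was lost without Wild-type library 2 or 3, Pu.1-URE-/- library 1 or 3, or Mdmx-Tg/Pu.1-URE-/- library 3, and a fit of the 6 libraries alone called 8 genes (Alad, Car1, Epor, Ermap, Gata1, Kel, Klf1 and Slc25a38) and 7.45% of all genes. Before adjustment, 6 of the 34 (17.6%) and 19.8% of all genes had a p below 0.05. In Mdmx-Tg cells 32 of the 34 genes were below 0, with a median of -0.86, and 0 were called by edgeR, as were 0% of all genes. An unadjusted p below 0.05 was found for 5 of them (14.7%) and for 10.5% of all genes, while DESeq2 called Fech and 2.14% of all genes and limma-voom called none of the 34. Groups did not overlap for 9 of the 34 genes, all lower in Mdmx-Tg, against 7.05% of all genes. The 3 comparisons share the Wild-type libraries.

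**Figure D1:**
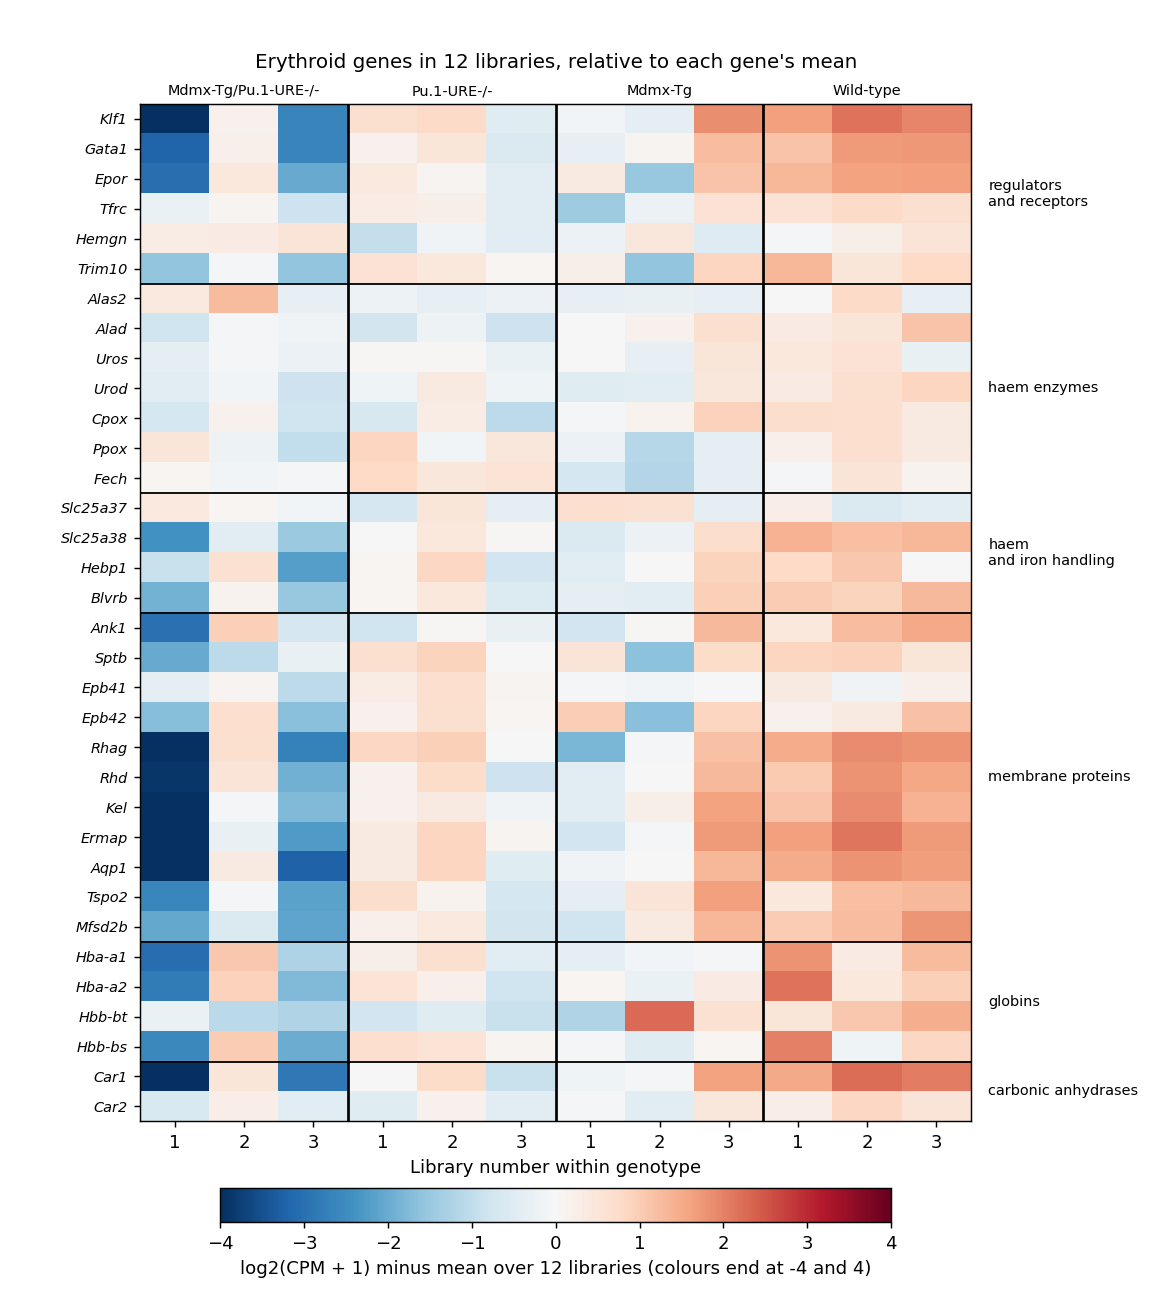
Colours give log2(CPM + 1) of each of the 34 tested erythroid genes minus its mean over the 12 libraries, with libraries in columns by genotype and genes in rows by role. Mdmx-Tg/Pu.1-URE-/- libraries 1 and 3 are mostly blue (below the mean), library 2 and the Pu.1-URE-/- libraries are mostly pale, and Mdmx-Tg library 3 and the 3 Wild-type libraries are mostly red (above the mean).

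In the erythroid genes, though not over all genes, the double mutants differed among themselves more than any other group. For 28 genes with more than 3 reads in each library of the group, the highest Mdmx-Tg/Pu.1-URE-/- library exceeded the lowest by a median of 6.20-fold, against 1.74-fold over all genes, and for Klf1 by 89.2-fold. The same median was 1.97-fold over 33 genes in Pu.1-URE-/- (all genes 1.65-fold), 2.62-fold over 30 genes in Mdmx-Tg (all genes 1.97-fold) and 1.52-fold over 33 genes in Wild-type libraries (all genes 1.64-fold). Library 2 was above libraries 1 and 3 for 28 of the 34 genes and more than 3-fold above both for 19, counts that were not made over all genes. Libraries 1 and 3 were both below every Wild-type library for 28 of the 34 genes, as were 17.4% of all genes, and library 2 was below every Wild-type library for 23, as were 26.1%. Library 1 was the lowest of all 12 libraries for 21 genes and library 3 for 6. In the Mdmx-Tg group library 3 was the highest for 28 genes, and in the Pu.1-URE-/- group library 2 was the highest for 24. Here and in the next paragraph, highest and lowest libraries were counted for the erythroid genes only. Without the share over all genes, these ranks do not separate erythroid genes from shifts of a whole library. Mdmx-Tg library 3 was below every Wild-type library for 10 genes, as were 22.8% of all genes, and Mdmx-Tg libraries 1 and 2 for 27 each, as were 28.7% and 30.8%.

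Other measures moved with these differences in some groups and against them in others. The 14 neutrophil markers summed to 57386, 33814 and 41336 CPM in Mdmx-Tg/Pu.1-URE-/- libraries 1, 2 and 3 and to 144841, 52370.1 and 106843 CPM in Pu.1-URE-/- libraries 1, 2 and 3, lowest in each of these groups in library 2, where the erythroid genes were mostly highest. In Mdmx-Tg libraries 1, 2 and 3 they summed to 851, 998 and 1625 CPM. There they were highest in library 3, which was also highest for 28 of the 34 erythroid genes. In Wild-type libraries they summed to 1245, 1265 and 2512 CPM. Immunoglobulin genes took 0.131%, 4.13% and 2.35% of the reads of Mdmx-Tg/Pu.1-URE-/- libraries 1, 2 and 3. Their share was 0.573%, 1.10% and 3.07% in Pu.1-URE-/- libraries 1, 2 and 3, of which library 3 was lowest for 25 genes. It was 3.79%, 6.91% and 10.6% in Mdmx-Tg libraries. In Wild-type libraries it was 31.2%, 10.3% and 0.427%, and library 1 was lowest of that group for 21 genes. Y-linked genes were high in Mdmx-Tg/Pu.1-URE-/- libraries 1 and 3, in which the erythroid genes were low, and stood at 4.91 CPM in library 2, but they were also high in Wild-type library 2, where 12 of the 34 genes had their highest value of all. The part of these in the result was not tested beyond a fit with Y-linked reads as a covariate, which called only Slc25a38 and 1.19% of all genes in Mdmx-Tg/Pu.1-URE-/- against Wild-type cells. With that covariate the log2 change was -2.55 for Slc25a38 (edgeR adjusted p = 0.0465) and -2.67 for Mfsd2b (adjusted p = 0.0597), and without it -2.68 for Slc25a38 and -2.83 for Mfsd2b. The mouse numbers in the labels were cut into 3 series for these comparisons, of which 2 hold Wild-type mice. The cut is not in the labels, and the highest series holds a wider gap than the one that parts it from the middle series. Whether mice of a series shared a batch is therefore not known. In the series with the lowest numbers, Mdmx-Tg/Pu.1-URE-/- library 1 was below Wild-type library 1 for 29 of the 34 genes, as were 47% of all genes. In the series with the highest numbers, Mdmx-Tg/Pu.1-URE-/- libraries 2 and 3 were both below Wild-type libraries 2 and 3 for 24, as were 21.1% of all genes. In the lowest series Pu.1-URE-/- library 1 was below Wild-type library 1 for 31 genes (all genes 52%) and Mdmx-Tg library 1 for 32 (50.5%), and in the highest series Mdmx-Tg library 3 was below both Wild-type libraries for 18 (31.4%).

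Promoter windows of 29 of the 35 genes were found in RefSeq (build GRCm38.p6), as 35 windows of 250 bases before a start. They were searched on both strands for WGATAA, the letters bound by GATA factors (spelled AGATAA or TGATAA), and for CCNCNCCC, the letters bound by KLF1, where N is any base and matches may overlap. WGATAA was found in 15 of the 35 windows (42.9%) and in 16.6% of 32851 windows of all genes, and CCNCNCCC in 20 (57.1%) and 45.9%. Both were found in 4 (11.4%) and 4.52%. Level and match did not always go together. Gata1, Blvrb, Sptb and Slc25a38 were lowest in Mdmx-Tg/Pu.1-URE-/- library 1 without WGATAA in a window, and Hemgn and Cpox hold WGATAA but were lowest elsewhere. The called gene Alad, whose windows hold CCNCNCCC only, is not shown. Shown first, as examples, are 4 genes whose levels were lowest in that library and whose windows hold WGATAA: the regulator Klf1 and the membrane genes Ermap, Kel and Rhag. Then follow the called genes Slc25a38 and Mfsd2b, whose windows hold CCNCNCCC only. Each is written 5′ to 3′ on the gene's own strand, ends at the base before the start, and has the matches in capitals.
Klf1, chr8:84901732-84901981, plus strand: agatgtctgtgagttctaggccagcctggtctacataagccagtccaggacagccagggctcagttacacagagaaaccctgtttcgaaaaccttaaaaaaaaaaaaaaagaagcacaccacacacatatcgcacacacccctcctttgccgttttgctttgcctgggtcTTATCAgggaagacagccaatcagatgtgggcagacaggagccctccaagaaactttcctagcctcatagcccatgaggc
Ermap, chr4:119189996-119190245, minus strand: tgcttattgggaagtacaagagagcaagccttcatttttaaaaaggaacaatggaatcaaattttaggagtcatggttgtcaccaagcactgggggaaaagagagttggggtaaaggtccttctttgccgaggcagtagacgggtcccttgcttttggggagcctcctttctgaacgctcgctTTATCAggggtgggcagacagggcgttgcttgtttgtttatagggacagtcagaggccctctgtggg
Kel, chr6:41704326-41704575, minus strand: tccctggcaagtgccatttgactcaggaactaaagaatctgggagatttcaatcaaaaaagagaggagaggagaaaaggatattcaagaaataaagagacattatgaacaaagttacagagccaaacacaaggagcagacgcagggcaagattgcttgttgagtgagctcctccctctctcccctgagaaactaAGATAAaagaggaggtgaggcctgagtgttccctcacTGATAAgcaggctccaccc
Rhag, chr17:40810899-40811148, plus strand: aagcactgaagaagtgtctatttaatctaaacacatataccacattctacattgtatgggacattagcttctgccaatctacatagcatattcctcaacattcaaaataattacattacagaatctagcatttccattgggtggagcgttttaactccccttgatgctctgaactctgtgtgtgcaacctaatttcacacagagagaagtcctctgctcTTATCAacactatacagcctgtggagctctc
Slc25a38, chr9:120110132-120110381, plus strand: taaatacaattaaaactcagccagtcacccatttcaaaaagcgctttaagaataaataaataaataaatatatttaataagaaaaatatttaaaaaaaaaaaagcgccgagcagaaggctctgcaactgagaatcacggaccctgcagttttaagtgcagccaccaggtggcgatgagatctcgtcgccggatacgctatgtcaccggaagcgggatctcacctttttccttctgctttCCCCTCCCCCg
Mfsd2b, chr12:4874360-4874609, minus strand: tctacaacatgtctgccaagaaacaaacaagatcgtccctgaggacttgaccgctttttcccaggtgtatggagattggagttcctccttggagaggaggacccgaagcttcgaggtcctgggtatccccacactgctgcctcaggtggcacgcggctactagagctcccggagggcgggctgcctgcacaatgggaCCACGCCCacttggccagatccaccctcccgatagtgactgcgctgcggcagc

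In these windows WGATAA began 80 bases before the start of Klf1, 67 before that of Ermap, 56 and 19 before that of Kel and 31 before that of Rhag. CCNCNCCC began 53 bases before the start of Mfsd2b, and 2 overlapping matches began 11 and 9 bases before that of Slc25a38. A match describes letters in a window and is not a measured binding site.

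Among the regulators, the 3 that define erythroid commitment were the most variable. Klf1 (chr8:84901928-84905291, GRCm38), the master activator of globin and red cell membrane genes, stood at 1.63, 145 and 20.2 CPM in Mdmx-Tg/Pu.1-URE-/- libraries 1, 2 and 3, 202, 223 and 93.0 in Pu.1-URE-/-, 121, 101 and 477 in Mdmx-Tg and 405, 593 and 506 in Wild-type. In CPM all 3 Mdmx-Tg/Pu.1-URE-/- and all 3 Pu.1-URE-/- libraries lay below all Wild-type libraries, while Mdmx-Tg library 3 reached into the Wild-type range. In TPM, Klf1 stood at 188 in Pu.1-URE-/- library 2, above 158 in Wild-type library 1. Against Wild-type its log2 change was -3.17 ± 1.17 (SE) in Mdmx-Tg/Pu.1-URE-/- (edgeR adjusted p = 0.179), -1.54 ± 1.10 in Pu.1-URE-/- (adjusted p = 0.509) and -1.11 ± 1.09 in Mdmx-Tg cells (adjusted p = 0.808). Gata1 (chrX:7959260-7978071), the factor on which all erythroid differentiation depends, stood at 6.15, 74.1 and 9.40 CPM in Mdmx-Tg/Pu.1-URE-/- libraries 1, 2 and 3, 72.3, 90.8 and 43.0 in Pu.1-URE-/-, 50.8, 69.7 and 154 in Mdmx-Tg and 143, 213 and 216 in Wild-type. It repeated the order of Klf1, with every Mdmx-Tg/Pu.1-URE-/- and Pu.1-URE-/- library below every Wild-type library in CPM. In TPM, Gata1 stood at 45.9 in Mdmx-Tg/Pu.1-URE-/- library 2 and 63.7 in Pu.1-URE-/- library 2, above 45.1 in Wild-type library 1. Its log2 change was -2.67 ± 0.83 in Mdmx-Tg/Pu.1-URE-/- cells (edgeR adjusted p = 0.117) and -1.54 ± 0.56 with loss of the element averaged over transgene status (adjusted p = 0.101). Epor, the erythropoietin receptor, stood at 1.35, 24.4 and 3.69 CPM in Mdmx-Tg/Pu.1-URE-/- libraries 1, 2 and 3, 24.1, 19.5 and 13.4 in Pu.1-URE-/-, 23.7, 5.69 and 41.6 in Mdmx-Tg and 47.4, 57.1 and 58.2 in Wild-type. No mutant library of any genotype reached the lowest Wild-type value. Its log2 change was -2.47 ± 0.93 in Mdmx-Tg/Pu.1-URE-/- cells (edgeR adjusted p = 0.188).

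The remaining 3 of this group behaved differently from one another. Tfrc, the transferrin receptor through which cells take up iron, stood at 68.5, 88.8 and 46.2 CPM in Mdmx-Tg/Pu.1-URE-/- libraries 1, 2 and 3, 101, 97.2 and 60.3 in Pu.1-URE-/-, 30.4, 70.0 and 123 in Mdmx-Tg and 125, 142 and 129 in Wild-type. In CPM every mutant library was below every Wild-type library, but the log2 change in Mdmx-Tg/Pu.1-URE-/- cells was only -0.96 ± 0.42 (edgeR adjusted p = 0.259). In TPM, Wild-type library 1 (15.7) was below libraries of every mutant genotype. Tfrc stood at 22.2 TPM in Mdmx-Tg/Pu.1-URE-/- library 2, 28.9 in Pu.1-URE-/- library 2 and 29.2 in Mdmx-Tg library 3. Hemgn, a nuclear protein of haematopoietic progenitors, ranged from 52.1 to 145 CPM over the 12 libraries. It averaged 132 ± 11.7 CPM in Mdmx-Tg/Pu.1-URE-/- and 72.6 ± 20.2 CPM in Pu.1-URE-/- libraries, without overlap (SD, n = 3 each; log2 change 0.86 ± 0.28, edgeR adjusted p = 0.406). Trim10, which is needed for terminal erythroid differentiation, was near the detection limit at 0 to 6.55 CPM, with no read in 3 libraries.

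**Figure D2:**
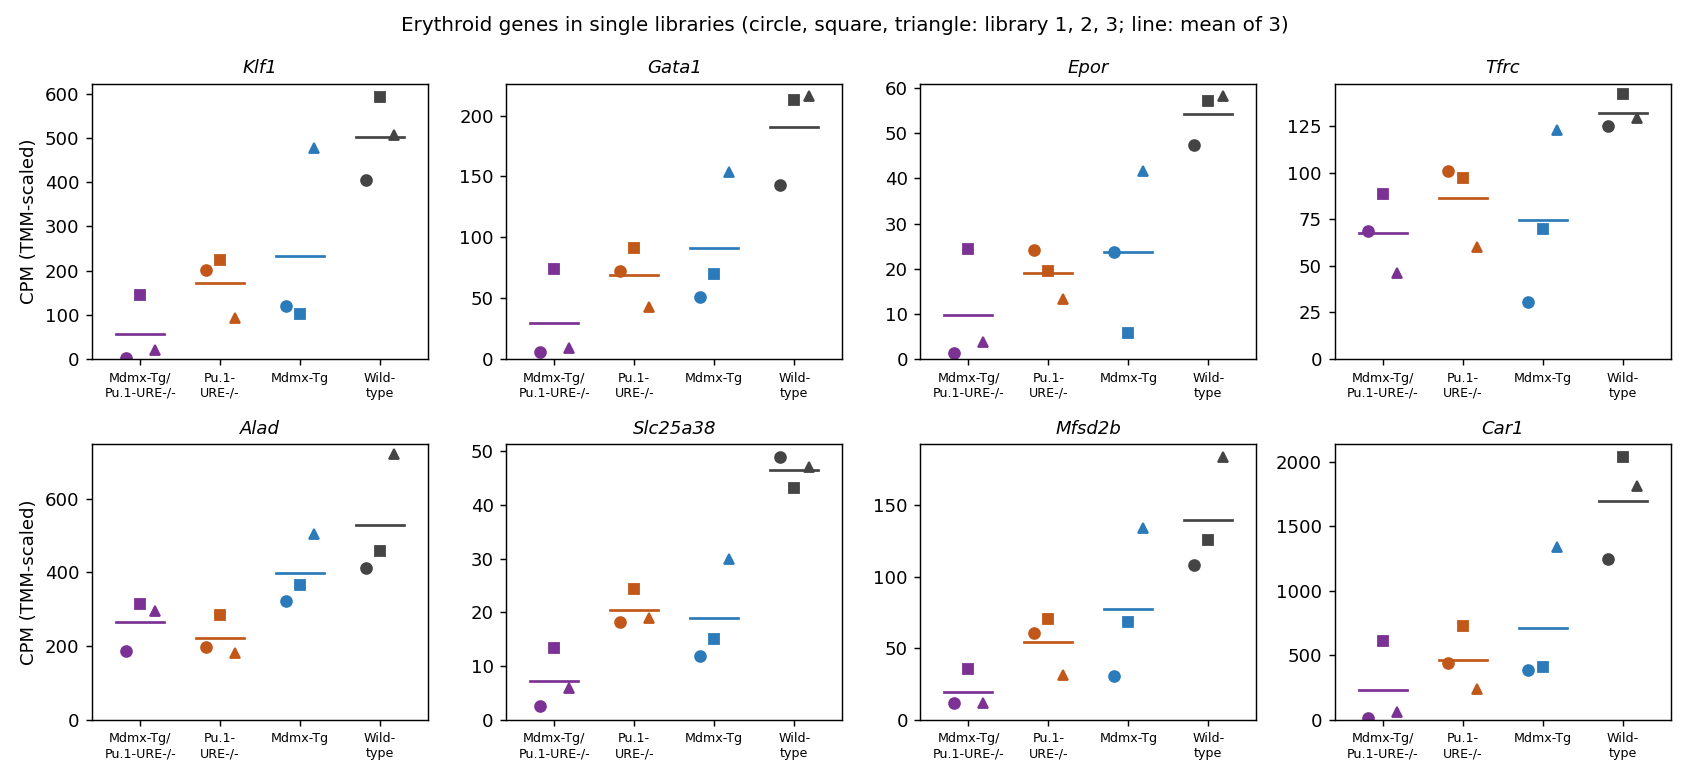
Each panel gives CPM of a gene in the 12 libraries by genotype, with symbols for the library number and a line at the mean of 3. In every panel the Wild-type mean is the highest, and in all but Alad the Mdmx-Tg/Pu.1-URE-/- mean is the lowest.

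The haem enzymes had a median log2 change against Wild-type of -0.56 in Mdmx-Tg/Pu.1-URE-/- (6 of 7 below 0), -0.62 in Pu.1-URE-/- (5 of 7) and -0.72 in Mdmx-Tg cells (7 of 7). Alad (chr4:62509169-62519918), which joins ALA molecules into porphobilinogen, was the most abundant of them at 169 to 917 TPM (a level scaled to transcript length and library total). It stood at 187, 314 and 295 CPM in Mdmx-Tg/Pu.1-URE-/- libraries 1, 2 and 3, 197, 285 and 181 in Pu.1-URE-/-, 322, 366 and 505 in Mdmx-Tg and 411, 457 and 720.5 in Wild-type. In CPM all Pu.1-URE-/- and Mdmx-Tg/Pu.1-URE-/- values lay below all Mdmx-Tg and Wild-type values. In TPM, Wild-type library 1 (212) was below Mdmx-Tg/Pu.1-URE-/- libraries 1, 2 and 3 (215.5, 299.9 and 304) and Pu.1-URE-/- library 2 (316). Alad fell 2.39-fold in Pu.1-URE-/- against Wild-type cells (log2 change -1.26 ± 0.30, edgeR adjusted p = 0.0355) and 1.90-fold with loss of the element averaged over transgene status (log2 change -0.92 ± 0.21, adjusted p = 0.0166). In Mdmx-Tg/Pu.1-URE-/- against Wild-type cells its log2 change was -0.998 ± 0.29 (adjusted p = 0.102).

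Fech, the ferrochelatase that inserts iron into the finished ring, went another way. It stood at 196, 171 and 174 CPM in Mdmx-Tg/Pu.1-URE-/- libraries 1, 2 and 3, 319.9, 254 and 271 in Pu.1-URE-/-, 113, 81.2 and 144 in Mdmx-Tg and 174, 264 and 205 in Wild-type. Pu.1-URE-/- libraries 1 and 3 were above all others, and every Mdmx-Tg/Pu.1-URE-/- library was above every Mdmx-Tg library. The log2 change was 0.53 ± 0.16 with loss of the element (edgeR adjusted p = 0.0543) and -0.78 ± 0.16 with the transgene (adjusted p = 0.139), each averaged over the other. DESeq2 called both changes. Urod, which trims the side chains of uroporphyrinogen, averaged 92.3 ± 23.1 CPM in Mdmx-Tg/Pu.1-URE-/- and 192 ± 35.5 CPM in Wild-type libraries (SD, n = 3 each), without overlap and with an edgeR adjusted p of 0.0926. Cpox, the next enzyme, averaged 40.5 ± 16.5 CPM in Mdmx-Tg/Pu.1-URE-/- and 79.5 ± 9.53 CPM in Wild-type libraries, also without overlap (log2 change -0.97 ± 0.40, edgeR adjusted p = 0.227). Uros, which closes the ring, and Ppox, which oxidises it, spanned 37.6 to 74.1 and 9.77 to 42.4 CPM over the 12 libraries, and neither was called in any comparison. Ppox overlaps B4galt3 and Cpox overlaps Gpr15 on the opposite strand. Whether the counting used strand is not given in the sources used here, so reads of these pairs may be shared.

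At the first step of the chain, RNA of the general enzyme was abundant and that of the erythroid enzyme was not. Alas2, the erythroid ALA synthase, stood at 0 to 1.99 CPM and had no read in 5 libraries, and its log2 changes carry standard errors of 2.04 or more in the comparisons with Wild-type. It overlaps Apex2 on the opposite strand, with 220 reads of Alas2 and 8048 of Apex2 over the 12 libraries, so its few reads are uncertain in origin. Alas1, the ALA synthase of all cells and not among the 35 genes, stood at 724, 322 and 442 CPM in Mdmx-Tg/Pu.1-URE-/- libraries 1, 2 and 3, 1410.1, 615 and 1329 in Pu.1-URE-/-, 54.3, 56.1 and 48.7 in Mdmx-Tg and 70.9, 73.5 and 99.2 in Wild-type. Every Mdmx-Tg/Pu.1-URE-/- and Pu.1-URE-/- library was above every Mdmx-Tg and Wild-type library. Alas1 rose in Pu.1-URE-/- against Wild-type cells (log2 change 3.78 ± 0.38, edgeR adjusted p = 0.000507), in Mdmx-Tg/Pu.1-URE-/- against Wild-type cells (2.61 ± 0.36, adjusted p = 0.00393) and in Mdmx-Tg/Pu.1-URE-/- against Mdmx-Tg cells (3.23 ± 0.37, adjusted p = 0.00143). The neutrophil markers rose in the same libraries, and their part in the Alas1 result was not tested.

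**Figure D3:**
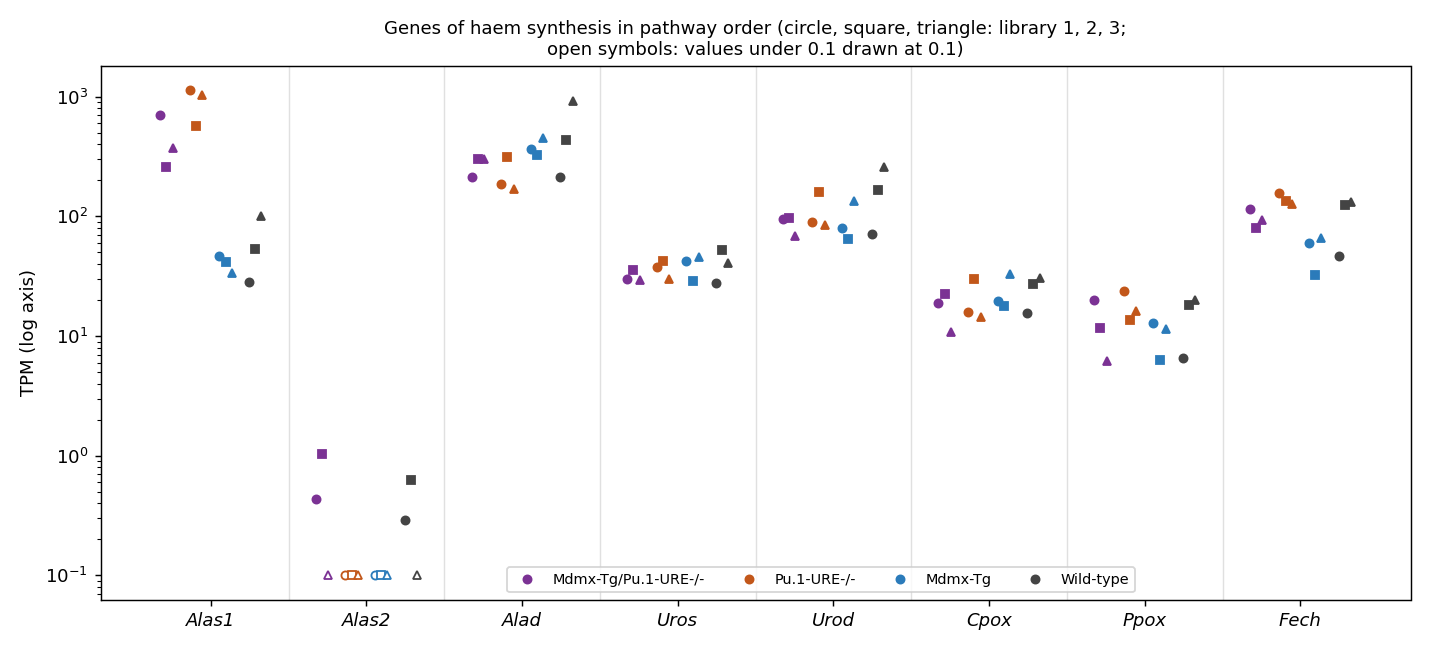
Points give TPM on a log axis for 8 genes of haem synthesis in pathway order, coloured by genotype, with symbols for the library number; Alas1 is shown beside the 7 listed enzymes. Alas1 separates the 6 libraries without the element from the 6 with it, while Alas2 is near 0 throughout and the other 6 overlap between the libraries of each mutant genotype and Wild-type.

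Of the genes of haem and iron handling, Slc25a38 showed the sharpest difference. It stood at 2.59, 13.3 and 5.87 CPM in Mdmx-Tg/Pu.1-URE-/- libraries 1, 2 and 3, 18.2, 24.3 and 18.9 in Pu.1-URE-/-, 11.8, 15.1 and 29.8 in Mdmx-Tg and 48.9, 43.2 and 47.1 in Wild-type. In CPM the 3 Wild-type libraries lay within a narrow range above all 9 mutant libraries, and Mdmx-Tg/Pu.1-URE-/- libraries 1 and 3 were the lowest. In TPM the Wild-type libraries spread over 21.1, 32.9 and 49.1. Pu.1-URE-/- library 2 (22.9 TPM) and Mdmx-Tg library 3 (21.5 TPM) were then above Wild-type library 1. Slc25a38 fell 6.40-fold in Mdmx-Tg/Pu.1-URE-/- against Wild-type cells (log2 change -2.68 ± 0.54, edgeR adjusted p = 0.0248). It also fell 2.43-fold with loss of the element averaged over transgene status (log2 change -1.28 ± 0.37, edgeR adjusted p = 0.0451), a call that was lost when any one of 10 of the 12 libraries was left out. The same call was lost without the low-count filter (edgeR adjusted p = 0.0540) and with a length offset (0.0553). It was also lost with a block by mouse number series (0.0501) and with the Y-linked covariate (0.0595). With the transgene averaged over element status the log2 change of Slc25a38 was -1.40 ± 0.37 (adjusted p = 0.139). Blvrb, a biliverdin and flavin reductase abundant in red cells, stood at 28.7, 122 and 37.9 CPM in Mdmx-Tg/Pu.1-URE-/- libraries 1, 2 and 3, 116, 147 and 75.6 in Pu.1-URE-/-, 84.4, 81.7 and 213 in Mdmx-Tg and 222, 205 and 271 in Wild-type. Its Mdmx-Tg/Pu.1-URE-/- and Pu.1-URE-/- libraries were all below the Wild-type ones in CPM (log2 change -1.88 ± 0.55 in Mdmx-Tg/Pu.1-URE-/-, edgeR adjusted p = 0.0983). In TPM, Blvrb stood at 182 in Mdmx-Tg/Pu.1-URE-/- library 2 and 244 in Pu.1-URE-/- library 2, above 180 in Wild-type library 1. Hebp1, a haem-binding protein whose gene overlaps Fam234b on the opposite strand, ranged from 2.64 to 34.3 CPM and overlapped between all genotypes. Slc25a37 (mitoferrin-1), which imports iron into mitochondria, stood at 13.3 to 35.02 CPM, with a log2 change of 0.34 ± 0.40 in Mdmx-Tg/Pu.1-URE-/- cells against Wild-type.

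The membrane proteins split into genes with clear levels and genes near 0. Mfsd2b (chr12:4862440-4874359) stood at 12.04, 35.1 and 11.5 CPM in Mdmx-Tg/Pu.1-URE-/- libraries 1, 2 and 3, 60.7, 70.6 and 31.3 in Pu.1-URE-/-, 30.3, 68.6 and 134 in Mdmx-Tg and 108, 126 and 184 in Wild-type. All Mdmx-Tg/Pu.1-URE-/- and Pu.1-URE-/- libraries were below all Wild-type libraries, and Mdmx-Tg library 3 lay within the Wild-type range. Mfsd2b fell 7.11-fold in Mdmx-Tg/Pu.1-URE-/- cells (log2 change -2.83 ± 0.60, edgeR adjusted p = 0.0294) and 3.19-fold with loss of the element averaged over transgene status (log2 change -1.67 ± 0.41, adjusted p = 0.0237). Each of these calls was lost in 5 of the 12 fits that leave out a library. Rhd, whose human counterpart carries the Rh blood group D antigen, had the highest TPM of this group and stood at 7.18, 170.4 and 30.9 CPM in Mdmx-Tg/Pu.1-URE-/- libraries 1, 2 and 3, 136, 198 and 66.6 in Pu.1-URE-/-, 87.9, 118 and 292 in Mdmx-Tg and 246, 416 and 351.6 in Wild-type. Its log2 change was -2.28 ± 0.91 in Mdmx-Tg/Pu.1-URE-/- cells (edgeR adjusted p = 0.21).

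Rhag, the ammonium channel of the Rh complex, stood at 0.985, 56.6 and 4.70 CPM in Mdmx-Tg/Pu.1-URE-/- and 103, 137 and 127 CPM in Wild-type libraries 1, 2 and 3. Ermap, which in humans carries the Scianna blood group, stood at 0.543, 40.7 and 9.69 CPM in Mdmx-Tg/Pu.1-URE-/- and 160.0, 228 and 168 CPM in Wild-type libraries. Aqp1, the red cell water channel, stood at 7.03, 164 and 12.7 CPM in Mdmx-Tg/Pu.1-URE-/- and 361, 449.7 and 409 CPM in Wild-type libraries. In CPM, Mdmx-Tg/Pu.1-URE-/- library 2 was at least 4-fold above libraries 1 and 3 in all 3 genes and still below every Wild-type library. The log2 change against Wild-type was -2.55 ± 1.15 for Rhag (edgeR adjusted p = 0.266), -3.45 ± 1.10 for Ermap (adjusted p = 0.126) and -2.73 ± 0.98 for Aqp1 (adjusted p = 0.169). Kel, an endopeptidase that in humans carries the Kell blood group, had no read in Mdmx-Tg/Pu.1-URE-/- library 1 and stood at 18.3 and 5.03 CPM in libraries 2 and 3, against 44.0, 75.0 and 53.0 CPM in Wild-type libraries. Tspo2, an erythroid translocator protein of cholesterol and porphyrin handling, averaged 5.92 ± 6.81 CPM in Mdmx-Tg/Pu.1-URE-/- and 30.2 ± 9.12 CPM in Wild-type libraries (SD, n = 3 each), with no overlap.

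Of the cytoskeleton genes Epb41 was little changed and the others were low in TPM. Epb41 (protein 4.1), which many cell types make, stood at 22.04 to 75.6 CPM with a log2 change of -0.54 ± 0.29 in Mdmx-Tg/Pu.1-URE-/- cells against Wild-type (edgeR adjusted p = 0.351). Ank1 (ankyrin), Sptb (beta-spectrin) and Epb42 (protein 4.2), which tie the membrane to its skeleton, reached at most 7.88, 1.49 and 2.78 TPM. Sptb averaged 2.24 ± 1.78 CPM in Mdmx-Tg/Pu.1-URE-/- and 9.62 ± 1.66 CPM in Wild-type libraries (SD, n = 3 each). These libraries did not overlap, though edgeR did not call the gene, while Ank1 and Epb42 overlapped between the same groups. The Sptb gene overlaps Plekhg3 on the opposite strand. Slc4a1, the anion exchanger band 3 of mature red cells, had reads in only 2 libraries and at most 0.143 TPM, and was not tested.

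**Figure D4:**
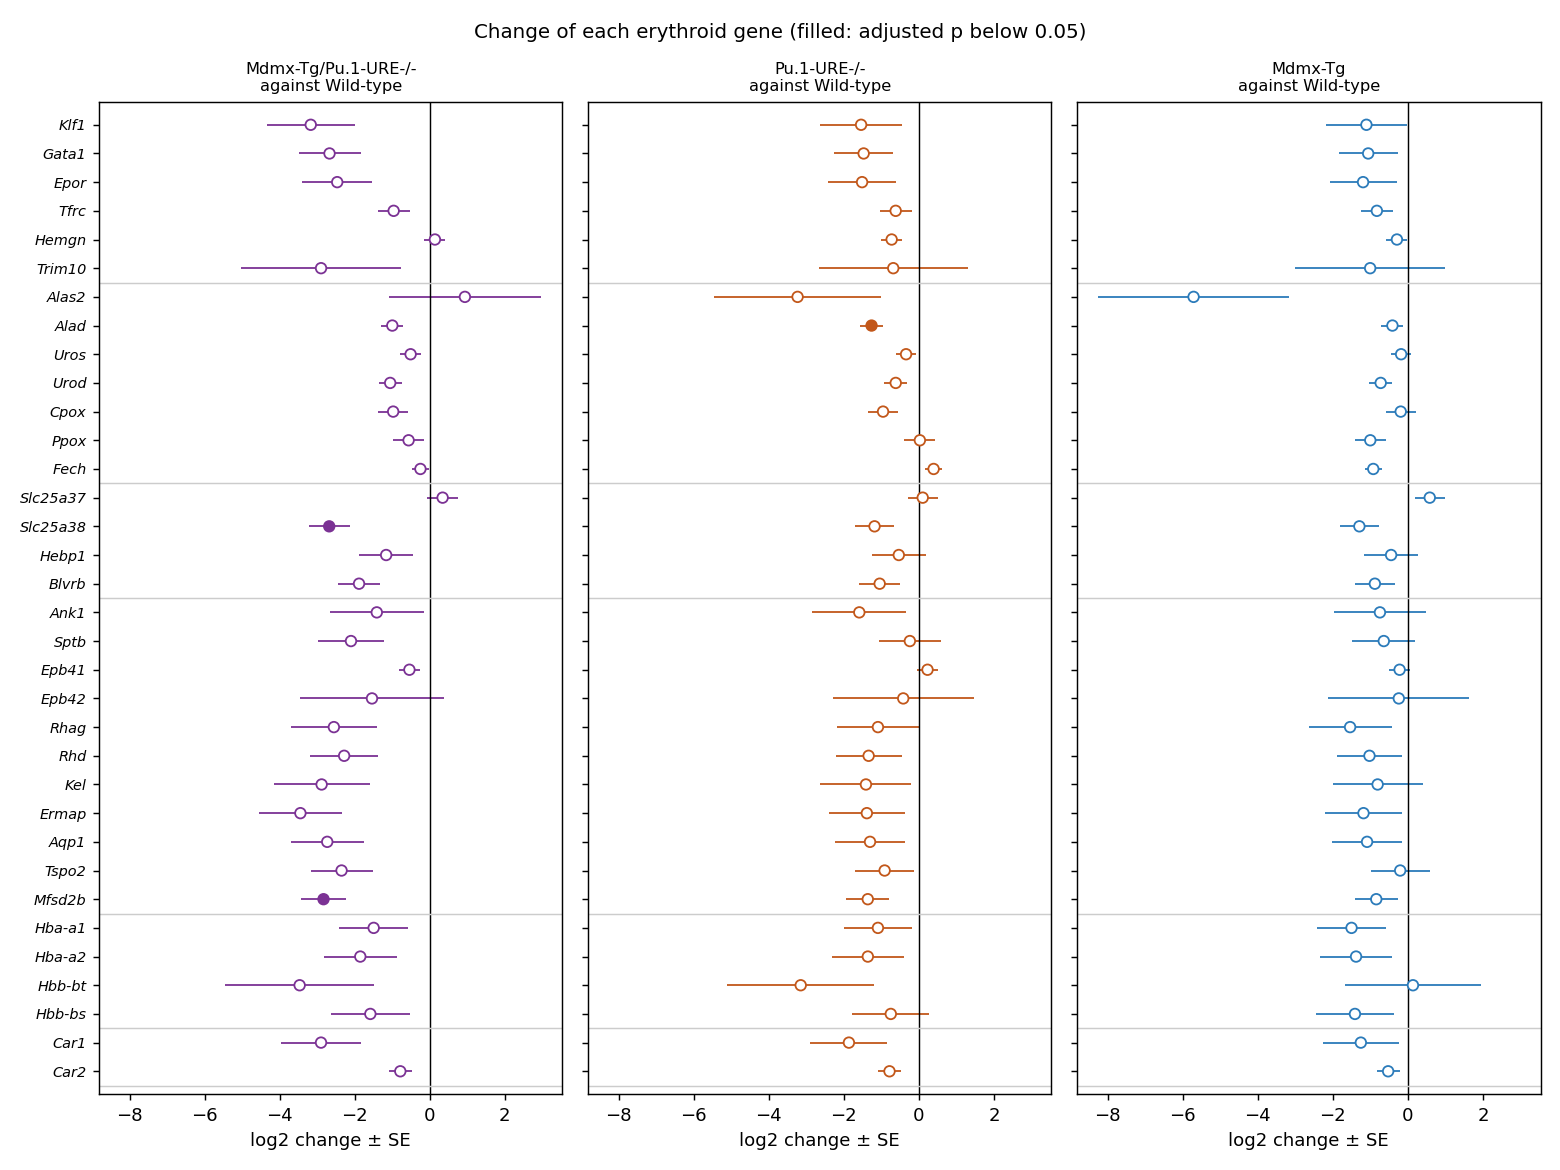
Points give the log2 change of each of 34 erythroid genes against Wild-type in Mdmx-Tg/Pu.1-URE-/-, Pu.1-URE-/- and Mdmx-Tg cells, with bars of 1 SE from the edgeR fit and filled points where the adjusted p is below 0.05. Filled points are Slc25a38 and Mfsd2b in the first panel and Alad in the second.

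Globins, which make up most of the RNA of maturing red cells, were minor here. The 4 adult globins together stood at 9.14, 171 and 22.9 TPM in Mdmx-Tg/Pu.1-URE-/- libraries 1, 2 and 3, 119.8, 133 and 57.5 in Pu.1-URE-/-, 90.6, 87.7 and 89.0 in Mdmx-Tg and 192, 111 and 253 in Wild-type. All 3 Mdmx-Tg libraries lay below all 3 Wild-type libraries, the Mdmx-Tg/Pu.1-URE-/- and Pu.1-URE-/- libraries overlapped the Wild-type ones, and Mdmx-Tg/Pu.1-URE-/- libraries 1 and 3 were the 2 lowest of the 12. The alpha-globin genes Hba-a1 and Hba-a2 are near-identical copies, as are the beta-globin genes Hbb-bt and Hbb-bs, so reads may be split between copies and single values are uncertain.

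Hba-a1 averaged 12.3 ± 16.1 CPM in Mdmx-Tg/Pu.1-URE-/-, 16.3 ± 6.25 in Pu.1-URE-/-, 12.3 ± 1.44 in Mdmx-Tg and 34.8 ± 16.4 in Wild-type libraries (SD, n = 3 each). Hba-a2 averaged 8.76 ± 12.2 CPM in Mdmx-Tg/Pu.1-URE-/-, 12.3 ± 5.68 in Pu.1-URE-/-, 12.1 ± 2.63 in Mdmx-Tg and 31.6 ± 21.3 in Wild-type libraries. For both genes Wild-type had the highest mean, and Mdmx-Tg/Pu.1-URE-/- library 2 overlapped the Wild-type libraries. Hbb-bs averaged 6.31 ± 9.42 CPM in Mdmx-Tg/Pu.1-URE-/-, 11.3 ± 2.38 in Pu.1-URE-/-, 7.11 ± 1.57 in Mdmx-Tg and 18.9 ± 14.3 in Wild-type libraries. Hbb-bt ranged from 0 to 10.1 CPM over the 12 libraries. Their log2 changes in Mdmx-Tg/Pu.1-URE-/- cells against Wild-type lay between -3.47 (Hbb-bt) and -1.49 (Hba-a1), with edgeR adjusted p-values of 0.344 to 0.485. The 6 further globin genes on the list, among them the embryonic Hbb-y, Hbb-bh1 and Hba-x, had no read in any library.

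The 2 carbonic anhydrases, enzymes of carbon dioxide transport, were the most abundant of the 35 genes, and differed in their spread. Car1 stood at 16.6, 608 and 58.7 CPM in Mdmx-Tg/Pu.1-URE-/- libraries 1, 2 and 3, 437, 727 and 236 in Pu.1-URE-/-, 385, 409 and 1341 in Mdmx-Tg and 1243, 2034 and 1815 in Wild-type. All Mdmx-Tg/Pu.1-URE-/- and Pu.1-URE-/- values were below all Wild-type values, and the highest of the 12 libraries was 122-fold the lowest. Its log2 change was -2.90 ± 1.07 in Mdmx-Tg/Pu.1-URE-/- (edgeR adjusted p = 0.179) and -1.86 ± 1.02 in Pu.1-URE-/- cells (edgeR adjusted p = 0.354). Car2, which osteoclasts also make, stood at 1067, 1951 and 1185 CPM in Mdmx-Tg/Pu.1-URE-/- libraries 1, 2 and 3, 1165, 1826 and 1221 in Pu.1-URE-/-, 1549, 1212 and 2264 in Mdmx-Tg and 1965, 2926 and 2348 in Wild-type. It varied 2.74-fold over the 12 libraries, with a log2 change of -0.78 ± 0.31 in Mdmx-Tg/Pu.1-URE-/- cells (edgeR adjusted p = 0.204). In TPM the mean over all libraries was 1071 for Car2 and 788 for Car1, followed by 349.5 for Alad, 195 for Blvrb and 173 for Klf1.

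The double mutants were also set against each single mutant. Against Mdmx-Tg, 29 of the 34 genes were below 0 in Mdmx-Tg/Pu.1-URE-/- cells (median log2 change -0.89) and edgeR called 0, where it called 2.32% of all genes, 0.646% downward. An unadjusted p below 0.05 was found for 5 (14.7%) and for 16.9% of all genes. DESeq2 called Mfsd2b and Tspo2 and 7.15% of all genes, limma-voom called none of the 34, and without Mdmx-Tg/Pu.1-URE-/- library 2 edgeR called 4 (Aqp1, Car1, Gata1 and Tspo2) and 1.99% of all genes. Only Alad had every Mdmx-Tg/Pu.1-URE-/- library below every Mdmx-Tg library, against 7.25% of all genes. Against Pu.1-URE-/-, 29 of the 34 were again below 0 (median -0.80), and edgeR called 0 of them and 0% of all genes. An unadjusted p below 0.05 was found for 5 (14.7%) and for 10.7% of all genes, and neither DESeq2 nor limma-voom called any. Groups did not overlap for 6 genes lower in Mdmx-Tg/Pu.1-URE-/- (Sptb, Fech, Ermap, Epb41, Slc25a38 and Trim10), against 8.95% of all genes, and for Hemgn, which was higher.

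Averaged over transgene status (6 libraries without the element against 6 with it), loss of the element gave a median log2 change of -0.92 with 31 of the 34 genes below 0. The 3 calls compare with 11.9% of all genes called, 3.81% downward. Only Alad had every library without the element below every library with it, against 1.89% of all genes. Before adjustment, 15 (44.1%) and 26.9% of all genes had a p below 0.05. DESeq2 called 10 of the 34 and 15.6% of all genes, and limma-voom 12 and 14.4%, with Fech higher and the other erythroid genes lower in both. Without Mdmx-Tg/Pu.1-URE-/- library 2 edgeR called 16 and 11.2% of all genes, and without Pu.1-URE-/- library 1 it called 0. Only Alad was called without Mdmx-Tg/Pu.1-URE-/- library 1 or 3, Pu.1-URE-/- library 3 or Wild-type library 3. Averaged over element status, the transgene gave a median of -0.84 with 32 of 34 below 0, and edgeR called 0 of the genes and 0% of all genes. Before adjustment, 8 of them (23.5%) and 16.3% of all genes had a p below 0.05. DESeq2 called Fech, Mfsd2b and Slc25a38 and 5.55% of all genes, limma-voom called none of the 34, and edgeR without Mdmx-Tg library 3 called Fech and Slc25a38 and 2.85% of all genes. No gene had every transgenic library below every other, against 0.506% of all genes. The interaction, which asks whether the changes of both alterations add on the log scale, was called for 0 of the 34 genes and 0% of all genes, with a median of 0.06. An unadjusted p below 0.05 was found for Alas2 and Hemgn, 5.88% of the 34, and for 5.8% of all genes, and neither DESeq2 nor limma-voom called any.

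Other genes of the same pathways moved less uniformly. Of 15 tested genes of haem metabolism outside the 35, loss of the element averaged over transgene status raised 2 and lowered 1: Alas1 rose (log2 change 3.50 ± 0.26, edgeR adjusted p = 3.29e-05), as did Abcb10 (1.14 ± 0.25, adjusted p = 0.0135), a mitochondrial transporter that stabilises mitoferrin-1, and Abcg2 fell (-0.79 ± 0.22, adjusted p = 0.0426), a porphyrin exporter of stem cells. Of 15 iron genes 1 was called, Slc40a1, the iron exporter ferroportin, which rose (1.93 ± 0.34, adjusted p = 0.00457). Among 19 tested erythroid regulators outside the 35, 1 rose and 5 fell, among them Bcl11a, a repressor of fetal globin (-1.06 ± 0.18, adjusted p = 0.00415), Sox6 (-4.39 ± 0.88, adjusted p = 0.00913), Stat5a (-1.004 ± 0.21, adjusted p = 0.0126) and Jak2, the kinase of the erythropoietin receptor (-0.65 ± 0.14, adjusted p = 0.0128). Of 19 further red cell membrane genes 2 rose, Mpp1 (1.13 ± 0.17) and Stom (1.31 ± 0.36), and Tmod1 fell (-2.02 ± 0.54, adjusted p = 0.0348). Of 9 late red cell genes only Prdx2, a peroxidase of red cells, was called and fell (-0.81 ± 0.23, adjusted p = 0.0448).

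Markers of other cells were read in the same comparison. All 12 tested neutrophil markers rose with loss of the element, of 14 listed, with a median log2 change of 8.87. Of 15 megakaryocyte markers 3 fell, Pf4 (-2.97 ± 0.79, edgeR adjusted p = 0.0352), Ppbp and Vwf (-2.09 ± 0.60, adjusted p = 0.0457), and their summed level was 187 to 257 CPM in Mdmx-Tg/Pu.1-URE-/-, 169 to 301 in Pu.1-URE-/-, 289 to 559 in Mdmx-Tg and 353 to 478 in Wild-type libraries. Of 7 tested macrophage markers, of 8 listed, Vcam1 rose, while 5 had a log2 change below 0, with a median of -2.12 over the 7. The 8 summed to 393 to 1089 CPM in Mdmx-Tg/Pu.1-URE-/-, 989 to 2669.7 in Pu.1-URE-/-, 15.1 to 34.8 in Mdmx-Tg and 14.5 to 41.4 in Wild-type libraries. Nearly all of the sum in Mdmx-Tg/Pu.1-URE-/- and Pu.1-URE-/- libraries was Vcam1, with means of 619 and 1901 CPM. The higher sums therefore describe Vcam1 and not the list. Of 10 tested mast cell, basophil and eosinophil markers Mcpt8 rose and Fcer1a and Prg3 fell, and of 8 tested B cell and plasma cell markers Cd79b fell. Of 12 stem cell and gate genes 2 rose, Flt3 (1.58 ± 0.42, the gene of Flk2) and Cd48, and 5 fell, among them Mllt3 (-2.33 ± 0.30, adjusted p = 0.000635) and Kit (-0.48 ± 0.14, adjusted p = 0.0482). The part of these cells in the lower erythroid levels was not tested. Of genes known from late red cell precursors, Slc4a1, Alas2, Epb42 and Trim10 stood at no more than 2.78 TPM in every library, while the 4 globins summed to 9.14 to 253 TPM and the 9 late red cell genes to 590.4 to 1861 TPM.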

How the data were processed

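RNA of 12 libraries from sorted bone marrow cells was made into polyA libraries and sequenced in pairs of 100 bases on the BGISEQ-500, per the labels' protocols. The submitters' processing notes name FastQC, Salmon and DESeq2 as tools and mm10 and GRCm38 as builds, with no version or setting. Per the file headers, the deposited files hold Salmon's estimated counts per transcript without normalization, the authors' TPM, and effective lengths. Of 116248 transcripts, 115995 (99.8%) matched GENCODE M21 with their version. The 253 others were dropped. Reads of a gene are the sum of its transcripts' estimated counts, rounded, and its TPM the sum of the deposited TPM. Genes are named by symbol and placed on GRCm38 by that annotation.

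Tests used edgeR 4.0.16 in R 4.3.3. Low genes were removed with filterByExpr at a minimum count of 10 and a minimum total of 15. After TMM scaling, a quasi-likelihood model gave each of the 4 genotypes its own mean, with all 12 libraries in the fit. The 8 contrasts were 5 pairwise ones, each alteration averaged over the other, and their interaction. P-values were adjusted by Benjamini-Hochberg over 15012 genes with a threshold of 0.05. DESeq2's shares of all genes are over 20696 genes with at least 1 read, any without an adjusted p counting as not called. Shares for edgeR fits of fewer libraries are over the genes that passed the filter in that fit. Deposited effective lengths, an other unit given per transcript by the authors, served only a length offset. Folds within a group used genes with more than 3 reads in each library. The fit was tested on simulated data. The biological coefficient of variation was 0.796, and replicates of a genotype correlated at 0.848 to 0.912.

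Depth was similar between libraries. Whether libraries came from separate litters or days is not given in the sources used here. The genes and gene lists were chosen with earlier results of these data known, and so support nothing by their direction alone. Described in full were genes called in any contrast, Klf1, Gata1, Epor, Tfrc, the globins, and in each other role the gene with the highest TPM and that with the smallest p. The other lists were haem genes, iron genes, erythroid regulators, globins, red cell membrane genes, late red cell genes and markers of megakaryocytes, mast cells with basophils and eosinophils, neutrophils, B and plasma cells, macrophages and stem cells, and up to 4 called genes of each were named, with some others by name. Some listed genes are not reported here. The alternatives tried were DESeq2 1.42.0, limma-voom (limma 3.58.1), scaling by relative log expression, no low-count filter, CPM above 1 in at least 3 libraries, a block by replicate number, fits restricted to the groups of a comparison, a block by series of mouse numbers, Y-linked expression as a covariate, immunoglobulin genes left out, a length offset, leaving out 3 libraries doubted in an earlier analysis (Mdmx-Tg/Pu.1-URE-/- 3, Mdmx-Tg 2, Wild-type 1), and leaving out each library in turn.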

Additional observations from a re-analysis of the deposited data

How the results depend on the processing

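Counts of called erythroid genes depended on the tool and on single libraries more than on scaling. Scaling by relative log expression factors, a CPM filter, the length offset and leaving out immunoglobulin genes kept each of the 8 counts within 1.5 times its value. Within that range the length offset lost the call of Slc25a38 for loss of the element (edgeR adjusted p = 0.0553). DESeq2 called 1 gene for Mdmx-Tg against Wild-type, 13 for Mdmx-Tg/Pu.1-URE-/- against Wild-type, 2 for Mdmx-Tg/Pu.1-URE-/- against Mdmx-Tg, 10 for loss of the element and 3 for the transgene, while edgeR called 0, 2, 0, 3 and 0. Over all genes DESeq2 called 1718 of 20696 for Mdmx-Tg/Pu.1-URE-/- against Wild-type, where edgeR called 502 of 15012. Limma-voom called 8 for Mdmx-Tg/Pu.1-URE-/- against Wild-type and 12 for loss of the element. A fit of only the groups compared called 8 for Pu.1-URE-/- against Wild-type, where the fit of all libraries called 1. The Y-linked covariate left 1 gene for Mdmx-Tg/Pu.1-URE-/- against Wild-type, and the mouse number series as a block left 0 for Pu.1-URE-/- against Wild-type. Without the 3 doubted libraries 0 were called for Pu.1-URE-/- and 0 for Mdmx-Tg/Pu.1-URE-/- against Wild-type, and 1 for loss of the element. Leaving out each library in turn gave 0 to 1 genes for Pu.1-URE-/- against Wild-type, 0 to 15 for Mdmx-Tg/Pu.1-URE-/- against Wild-type, 0 to 4 for Mdmx-Tg/Pu.1-URE-/- against Mdmx-Tg, 0 to 16 for loss of the element and 0 to 2 for the transgene. The adjusted p of the called genes then spanned 0.0277 to 0.152 (Alad, Pu.1-URE-/-), 0.00814 to 0.105 (Slc25a38, Mdmx-Tg/Pu.1-URE-/-) and 0.0151 to 0.124 (Mfsd2b, Mdmx-Tg/Pu.1-URE-/-). The causes were not tested. Few reads limited Slc4a1 (no read in 10 libraries), Alas2 (5), Trim10 (3), Hbb-bt (2), Epb42 (1) and Kel (1). No change of a called gene was reversed under any of these alternatives.

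The titles number the libraries 1 to 3 in each genotype. Deviations of same-numbered libraries correlated at -0.153 to 0.0856, and those of differently numbered libraries at -0.0863 to 0.136. Same-numbered libraries thus did not deviate together more than others. These correlations cannot exclude a pairing, since the libraries numbered 1 of every genotype also share the lowest mouse numbers. With a replicate block the test called 1 gene for Pu.1-URE-/- against Wild-type, 2 for Mdmx-Tg/Pu.1-URE-/- against Wild-type, 3 for loss of the element and 0 in the other 5 contrasts, the same counts as without it.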

Other observations

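The summed TPM of Hba-a1 and Hba-a2 over that of Hbb-bt and Hbb-bs was 1.58, 3.29 and 6.21 in Mdmx-Tg/Pu.1-URE-/- libraries 1, 2 and 3, 2.76, 2.94 and 1.86 in Pu.1-URE-/-, 3.38, 1.45 and 2.86 in Mdmx-Tg and 3.15, 3.14 and 3.03 in Wild-type. The Wild-type libraries lay close together although their summed globin TPM ranged from 111 to 253, and the lowest ratio was that of Mdmx-Tg library 2. In that library Hbb-bt stood at 10.1 CPM, its highest value, while it stood between 0 and 5.35 CPM in the other 11. The ratios of Mdmx-Tg/Pu.1-URE-/- libraries 1 and 3 rest on 152 and 472 globin reads.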
